A study of Mus musculus with 6 samples.

Results

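The genes described here are the receptors and ligands of the Notch pathway with its nuclear factor and a target. The 10 genes are the ligands Jag1, Jag2, Dll1 and Dll4, the receptors Notch1 to Notch4, the DNA-binding factor Rbpj and the target gene Hes1. They were taken by symbol from a named list, and all 10 of the 18193 genes with an unambiguous probe set were found. A probe set is a group of short probes that are read together as 1 value, and the genes had 21 of the 45037 probe sets tested. Whether the probes of a set also match transcripts of other genes was not checked. Each gene is represented by its brightest probe set, the one with the highest mean over the 6 arrays. The choice of genes was made with the difference between the genotypes already known, and Jag1 was singled out for it. The genotype differences of the 10 genes are therefore given as a description, with a standard error and a 95% confidence interval and with no test.

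The samples were LKS+ cells of mice, which are negative for markers of mature blood lineages and positive for Sca-1 with high c-Kit. This sorted fraction holds the hematopoietic stem cells and multipotent progenitors. Both genotypes, wild type (WT) and Apcmin, had 3 samples, with 1 Affymetrix Mouse Genome 430 2.0 array per sample. At least 20000 cells per mouse were sorted at a purity above 90%, per the labels' protocols, and their RNA was amplified linearly before labelling. The Apcmin genotype stands for the Min allele of Apc, a germline stop mutation in a scaffold of the complex that degrades beta-catenin, so the cells around the sorted ones carry it as well. The sources used here give no strain, age or sex. No label names the animals, so the spread between arrays may be partly technical. In bulk RNA of this kind, fewer cells of a type and less RNA per cell cannot be told apart.

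Notch receptors are single-pass proteins that are activated by ligands of the Jagged and Delta-like families on a neighbouring cell. Ligand binding lets ADAM proteases and then gamma-secretase cut the receptor, and the released intracellular part enters the nucleus, joins the factor RBPJ and switches on genes such as Hes1. The pathway is best known in blood for directing early lymphoid cells to the T-cell fate. In bone marrow the ligands are known mainly from endothelial and stromal cells, and the receptors from the blood cells themselves.

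The arrays were alike in scale, with median log2 intensities of 4.12 to 4.18 and between 33.3% and 34.5% of probe sets at a log2 intensity of at least 6, the level called bright here. By correlation they did not all lie closest to their own genotype. WT replicate 3 was closest to Apcmin replicate 1 (0.989), and WT replicate 2 to Apcmin replicate 3 (0.987). WT replicate 1 stood furthest apart, its highest correlation with another array being 0.981. Markers of the sorted population were bright by their mean over the 6 arrays: Kit was at 9.79 in WT and 9.87 in Apcmin, Cd34 at 10.94 in both, Flt3 at 10.01 and 10.06, and Slamf1 at 6.13 and 5.91. Of 17 markers of mature blood cells 6 were bright as well. Among them S100a9 was at 12.03 in WT and 11.96 in Apcmin, S100a8 at 11.38 and 11.34, and Camp at 9.66 and 9.52. The rest of that list was dim, with Cd3e at 3.07 in WT and 2.40 in Apcmin, Cd79a at 3.85 and 3.29, and Itgam at 2.75 and 2.64. These readings therefore do not measure the purity of the sort. Apc read 7.72 ± 0.09 (SD, n = 3) on the WT arrays and 7.80 ± 0.09 on the Apcmin arrays, and Ctnnb1, the gene for beta-catenin, read 11.63 ± 0.13 and 11.72 ± 0.13. The Min mutation changes a codon, so the Apc level is a weak check of the labels. No probe set differed between the genotypes in limma with Benjamini-Hochberg adjustment, 0 of 45037 (0%), and 0.954 was the smallest adjusted p. Without adjustment, 1714 probe sets (3.81%) had a p under 0.05.

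The ligands are described first. Jag1 is a Jagged-family ligand that marrow endothelial and stromal cells are known to present, and 3 probe sets measured it. Its brightest probe set, 1434070_at, read 3.67, 3.82 and 3.56 on the log2 scale on WT replicates 1, 2 and 3. On Apcmin replicates 1, 2 and 3 it read 5.07, 4.69 and 4.73. All Apcmin arrays lay above all WT arrays, with no overlap. In linear intensity the WT arrays ran from 11.8 to 14.1 and the Apcmin arrays from 25.8 to 33.5. The means were 3.68 ± 0.13 (SD, n = 3) and 4.83 ± 0.21, a log2 difference of 1.15 with a standard error of 0.17 and an interval from 0.75 to 1.54, or 2.21-fold. Over all genes every Apcmin array was higher in 2.97% and the log2 difference was at least 1 upward in 0.379%. Jag1 ranked 33 of 18193 genes by upward difference, and 1434070_at ranked 1 of 45037 probe sets by unadjusted p. Those ranks are what drew attention to the gene, and nothing is read from them.

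The other Jag1 probe sets did not show this. Probe set 1421105_at read 3.70, 3.92 and 3.37 on the WT arrays and 3.09, 3.09 and 3.54 on the Apcmin arrays. Its groups overlapped, and its log2 difference had the opposite sign, -0.42 with an interval from -0.92 to 0.08. Probe set 1421106_at read 2.91, 2.52 and 2.31 in WT and 2.76, 2.46 and 2.39 in Apcmin, which differed by -0.05 with an interval from -0.53 to 0.44. The mean of the 3 probe sets put the Jag1 difference at 0.23. All 3 were dim: 51.2% of all probe sets had a lower mean than 1434070_at, 42.7% a lower mean than 1421105_at and 30.5% a lower mean than 1421106_at. In the 1167 genes with a mean between 4 and 5, as for 1434070_at, 33 genes (2.83%) had a log2 difference of at least 1 upward. Every Apcmin array was higher in 53 genes of that class (4.54%), above the 2.97% over all genes. With values under 4 set to 4 the difference of 1434070_at was 0.83, since the WT values all lay under that floor, and with 16 added to each intensity before the log it was 0.62.

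**Figure D1:**
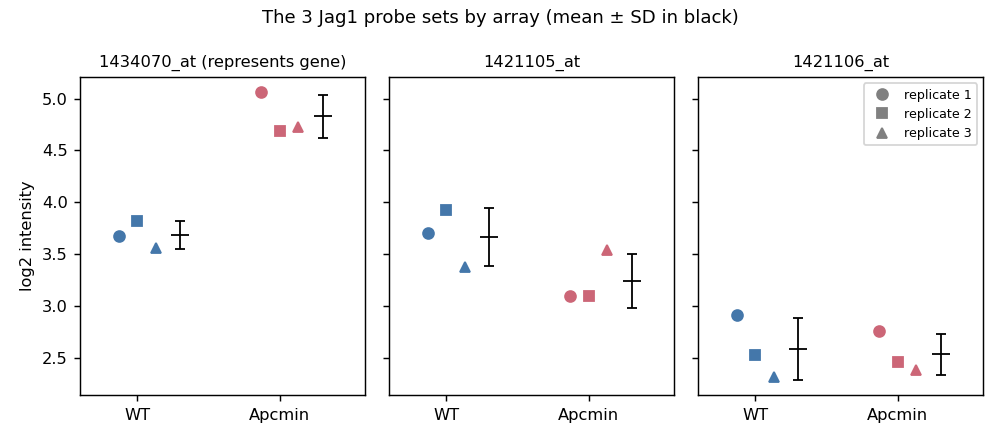
Log2 intensity of the 3 Jag1 probe sets on each WT (blue) and Apcmin (red) array, with the mean ± SD (n = 3) in black beside each group and a marker shape per replicate number. The Apcmin arrays read from 4.69 to 5.07 in 1434070_at, all above the WT arrays, while the groups overlap in the other panels.

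The stretch upstream of the Jag1 start is shown because Jag1 had the largest difference of the 10 genes, and that upstream of Rbpj because it held a match to the core of the site that RBPJ itself binds. Both are the 250 bases before the annotated start, from RefSeq, build GRCm38.p6, where 9 of the 10 genes had an entry and Hes1 did not. The searches were for TGGGAA, the RBPJ core, and for CTTTGA or CTTTGT, cores bound by the TCF/LEF partners of beta-catenin, on both strands, and capitals mark the matches. The Jag1 stretch (chr2:137116521-137116770, minus strand) held none. The Rbpj stretch, at the upstream of its 2 annotated starts (chr5:53590096-53590345, plus strand), held the RBPJ core at 149 to 144 bases before the start and, on the opposite strand, at 65 to 60 bases before it.
Jag1: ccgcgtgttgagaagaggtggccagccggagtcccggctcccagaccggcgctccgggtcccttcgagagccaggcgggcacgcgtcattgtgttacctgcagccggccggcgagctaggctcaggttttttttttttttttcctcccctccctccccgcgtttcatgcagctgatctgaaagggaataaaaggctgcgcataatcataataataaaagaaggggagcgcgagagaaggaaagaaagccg
Rbpj: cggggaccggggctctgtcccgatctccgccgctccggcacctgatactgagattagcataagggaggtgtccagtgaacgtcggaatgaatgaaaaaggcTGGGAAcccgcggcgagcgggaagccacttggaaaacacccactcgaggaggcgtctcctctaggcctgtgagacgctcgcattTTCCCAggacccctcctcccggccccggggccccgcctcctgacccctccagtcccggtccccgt
Over 32851 annotated starts, 21.6% of such stretches held TGGGAA and 27.6% held CTTTGA or CTTTGT. Of the other genes, Dll1 held 1 match to CTTTGT at 1 of its 2 annotated starts. These matches describe letters in a window and were not set against binding data.

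Jag2, the second Jagged ligand, was the only ligand of the 4 with a bright probe set. Probe set 1426430_at read 6.66, 6.45 and 6.28 in WT and 6.53, 6.17 and 6.84 in Apcmin. The lowest and the highest array were both Apcmin, and the difference was 0.05 with an interval from -0.45 to 0.55. Its sign turned without WT replicate 3 (-0.04) and without Apcmin replicate 3 (-0.11), and it was 0.15 without WT replicate 1 and 0.22 without Apcmin replicate 2. The other Jag2 probe set, 1426431_at, read 4.69, 4.81 and 5.02 in WT and 4.15, 4.62 and 4.67 in Apcmin. There all Apcmin arrays lay below all WT arrays, by a narrow gap, with a difference of -0.36 and an interval from -0.82 to 0.10.

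The Delta-like ligands were dim, with 29.9% of probe sets dimmer than that of Dll1 and 35.8% dimmer than the brightest of Dll4. Dll1, a Delta-like ligand used in culture to drive T-cell development, read 3.39, 2.66 and 2.42 in WT and 1.89, 2.23 and 2.53 in Apcmin. The groups overlapped through WT replicate 3 and Apcmin replicate 3, and the difference was -0.61 with an interval from -1.31 to 0.09. Without WT replicate 1, the highest array, it was -0.33. Dll4, the ligand that supports T-cell commitment in the thymus and guides vessel sprouting, read 3.27, 3.38 and 2.67 in WT and 2.60, 2.92 and 2.71 in Apcmin. WT replicates 1 and 2 were the high arrays in both of its probe sets, and the differences were -0.37 and -0.27. Without WT replicate 3 the first was -0.59, and without WT replicate 2 it was -0.23. Dim genes as a class moved in the same direction: 4403 genes had a mean between 2 and 4, and their median difference was -0.18, and their mean deviation was 0.20 on WT replicates 1 and 2 against -0.16 on WT replicate 3. The part of this class shift in the Dll1 and Dll4 differences was not tested.

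Among the receptors, Notch1 and Notch2 each had a bright probe set and Notch3 and Notch4 had none. Notch1, the receptor required for T-cell commitment, read 9.29, 9.59 and 9.42 in WT and 9.28, 9.51 and 8.75 in Apcmin. Apcmin replicate 3 stood below the other arrays, and the remaining Apcmin arrays read close to WT arrays. The second Notch1 probe set was also lowest on Apcmin replicate 3, at 6.03, against 6.29 to 6.95 elsewhere. The representative difference was -0.25 with an interval from -0.78 to 0.28, and it was -0.04 without Apcmin replicate 3 and -0.42 without Apcmin replicate 2.

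Notch2, a receptor needed for marginal zone B cells and known from early progenitors, was in the brightest range of the array, with 98.7% of probe sets dimmer than 1455556_at. It read 11.06, 10.80 and 11.07 in WT and 11.13, 11.00 and 10.98 in Apcmin. The groups overlapped, and its interval, from -0.29 to 0.41 around 0.06, was among the narrowest of the 21 probe sets. The dim Notch2 probe set 1451889_at read from 3.94 to 5.09 in WT and from 4.01 to 4.46 in Apcmin, and its difference was -0.44 with an interval from -1.19 to 0.31. The sign of the Notch2 difference thus depended on the probe set, and it also turned without WT replicate 2 (-0.02); leaving out each of the other arrays gave 0.01 to 0.11.

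Notch3, known from vascular smooth muscle and thymocytes, read 2.96, 4.60 and 4.30 in WT and 4.08, 3.75 and 4.16 in Apcmin. The WT arrays spanned more than the Apcmin arrays, which lay inside their range, and the difference was 0.04 with an interval from -0.95 to 1.03. Its second probe set, 1421965_s_at, read 3.79, 4.32 and 3.87 in WT and 3.65, 3.19 and 3.66 in Apcmin, all Apcmin arrays lower, with a difference of -0.50. Notch4, a receptor of endothelial cells, read 2.88, 4.36 and 3.95 in WT and 3.69, 3.55 and 3.72 in Apcmin. WT replicate 1 was the lowest array for the representative probe sets of both Notch3 and Notch4 and for Notch4 probe set 1449146_at (2.52). Without that array the Notch3 difference was -0.46 and the Notch4 difference -0.50, while without WT replicate 2 they were 0.36 and 0.24. The Notch4 difference also turned positive without WT replicate 3 (0.04), and the Notch3 difference was slightly negative without Apcmin replicate 1 (-0.003) or Apcmin replicate 3 (-0.04). The direction of both receptors thus depended on single arrays.

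**Figure D2:**
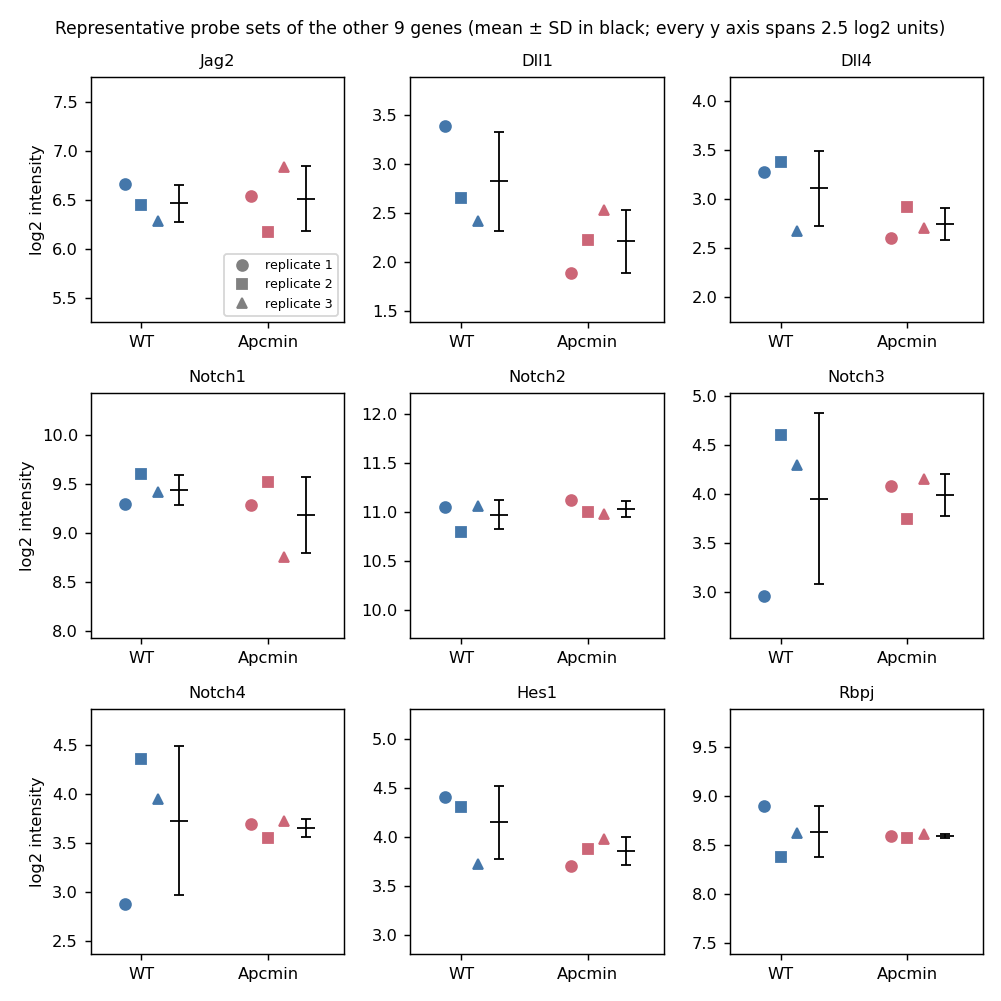
Log2 intensity of the representative probe sets of the other 9 genes on each WT (blue) and Apcmin (red) array, with the mean ± SD (n = 3) in black. The groups overlap in every panel; WT replicate 1 stands low for Notch3 (2.96) and Notch4 (2.88), and Apcmin replicate 3 for Notch1 (8.75).

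The nuclear factor and the target gene read lower in Apcmin in all 4 of their probe sets, with differences from -0.29 to -0.04. Rbpj, the DNA-binding partner of the cleaved receptor, read 8.90, 8.37 and 8.62 in WT and 8.59, 8.57 and 8.61 in Apcmin in its brightest probe set. The Apcmin arrays lay inside the WT range, and the difference of -0.04 had an interval from -0.45 to 0.36. Its sign turned without WT replicate 1 (0.09), and it was -0.17 without WT replicate 2. Probe set 1448957_at, given in linear intensity, read 263, 292 and 275 in WT and 239, 235 and 256 in Apcmin, all Apcmin arrays lower by a narrow gap. Its log2 difference was -0.19. Probe set 1418114_at read from 6.69 to 7.15 in WT and from 5.87 to 7.18 in Apcmin, where Apcmin replicate 2 was the low array.

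Hes1, a repressor and the best known direct target of the pathway, was dim and had 1 probe set. It read 4.41, 4.31 and 3.73 in WT and 3.70, 3.88 and 3.98 in Apcmin. WT replicates 1 and 2 were the high arrays and WT replicate 3 lay among the Apcmin arrays. The difference was -0.29 with an interval from -0.81 to 0.22, and it ranged from -0.51 without WT replicate 3 to -0.16 without WT replicate 1.

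Counted over the 10 representative probe sets, 6 genes had a lower and 4 a higher mean in Apcmin, where 57.0% of all genes had a lower mean. Their median difference was -0.06, beside -0.04 over all genes. Over all 21 probe sets, 17 had a lower mean, where the share over all probe sets was 55.6%. Of the 14 dim ones 12 were lower, against 62.0% of dim probe sets in general, and of the 7 bright ones 5 were lower, against 43.2%. Probe sets of 1 gene share their transcript, so these are not 21 independent readings. Every Apcmin array was lower in 3 of the 21 (background 4.78%) and higher in 1 (3.10%), and none of the 3 was the representative of its gene, so that 0 of the 10 genes had every Apcmin array lower (background 4.76%). Of the 8 genes with several probe sets, Jag1, Jag2, Notch2 and Notch3 had probe sets of both signs, and Dll4, Notch1, Notch4 and Rbpj had probe sets of a single sign, lower in each. The 21 differences ran from -0.61 in Dll1 to 1.15 in Jag1.

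**Figure D3:**
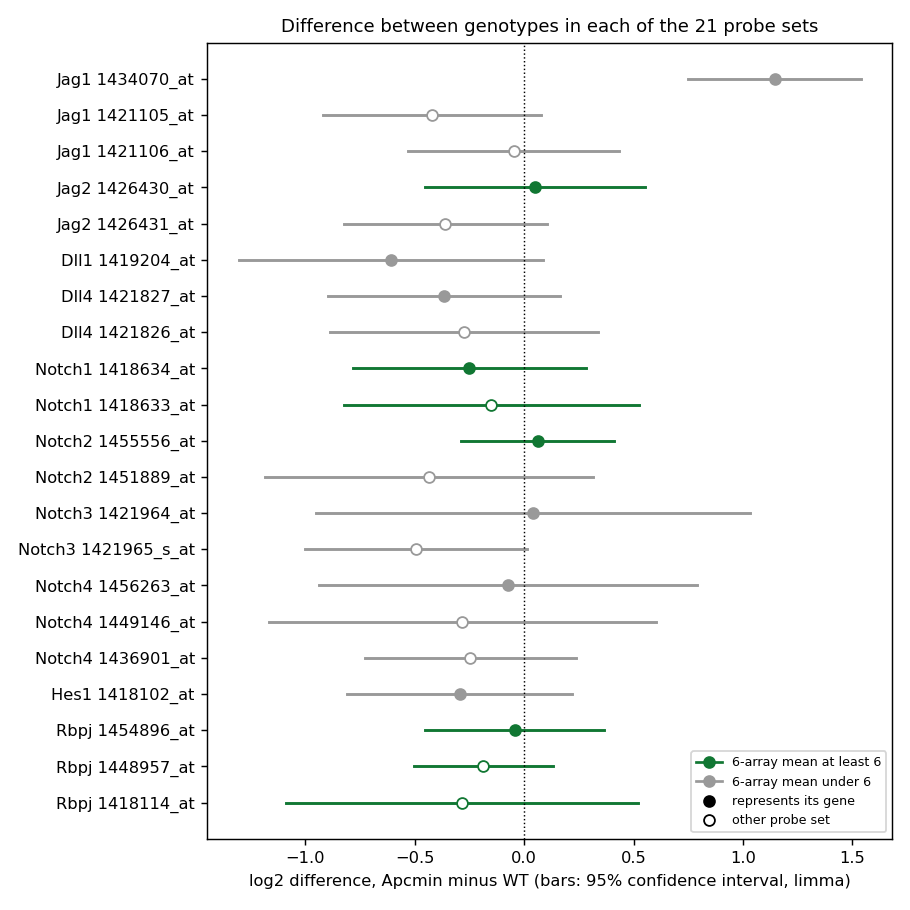
Log2 difference (Apcmin minus WT) of each of the 21 probe sets with its 95% confidence interval from limma; green probe sets have a mean of at least 6, and filled points represent their gene. Jag1 1434070_at, the probe set for which the gene was singled out, lies at 1.15, and the other 20 lie between -0.61 and 0.06.

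The rest of the pathway was taken from a list of 80 further genes by role, of which 75 were measured and 53 were bright in either genotype. None passed in limma (0 of 75, smallest adjusted p = 0.954), and 1 had an unadjusted p under 0.05, as had 3.11% of all genes. The Apcmin mean was higher in 32 and lower in 43, and the median difference, -0.05, stood beside -0.04 over all genes. Differences ran from -0.49 to 0.73, and none reached 2-fold. All Apcmin arrays were lower in 6 (background 4.76% of all genes) and higher in 2 (2.97%). Snai1, Hes7, Hes6, Dtx1, Wwp2 and Cir1 were the 6, and Fbxw7 and Dtx3 the 2, named here after their values were seen.

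Upstream of the receptor, genes of ligand endocytosis and of receptor maturation, such as enzymes that sugar-coat Notch, had 4 of 11 members higher and 7 lower. Lfng, a Fringe glycosyltransferase that tunes which ligands a receptor answers, read 7.67 ± 0.42 (SD, n = 3) on the WT and 8.07 ± 0.28 on the Apcmin arrays (difference 0.40), and Rfng, another Fringe enzyme, at 8.74 ± 0.13 and 8.98 ± 0.12 (0.24). The receptor-cleaving proteases had 4 of 7 higher, with Psen2, a catalytic subunit of gamma-secretase, at 6.46 ± 0.29 and 6.67 ± 0.21 and Ncstn, nicastrin, at 6.68 ± 0.10 and 6.81 ± 0.18. All 6 of the further ligands had a lower mean, 5 of them dim, where 62.0% of dim probe sets and 57.0% of all genes had a lower mean. The bright one was Egfl7, a secreted protein of endothelial and stem cells that can bind Notch, at 8.47 ± 0.06 in WT and 8.20 ± 0.34 in Apcmin.

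Downstream, cofactors and corepressors had 11 of 17 members higher with a median difference of 0.03. Snw1, a coactivator that binds the cleaved receptor, was at 10.51 ± 0.11 and 10.63 ± 0.03, and Cir1, an RBPJ corepressor, at 8.21 ± 0.21 and 7.95 ± 0.06. Negative regulators had 11 of 15 lower, with a median of -0.13, where 57.0% of all genes had a lower mean. Wwp2, a ubiquitin ligase, was at 7.86 ± 0.14 and 7.54 ± 0.04 (difference -0.32). Dtx2, a Deltex ubiquitin ligase, was at 6.88 ± 0.13 and 6.53 ± 0.23. Among genes listed as targets 9 of 21 were higher and 12 lower. Of these, Dtx1 and Nrarp, both lower, were counted among the negative regulators too. Whether each listed gene answers to Notch in these cells was not tested. Hes6, on that list as a relative of Hes1, was at 10.53 ± 0.07 and 10.37 ± 0.04. Nrarp, a feedback inhibitor induced by Notch, was at 6.64 ± 0.58 and 6.23 ± 0.91. No adjusted p among the genes named in these groups was below 0.954. The other probe set of Rfng, Psen2 and Nrarp and 1 of the 2 others of Snw1 had a difference of the opposite sign, while the other probe sets of Lfng, Ncstn, Egfl7, Wwp2, Dtx2 and Hes6 had the same sign, and Cir1 had no other.

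**Figure D4:**
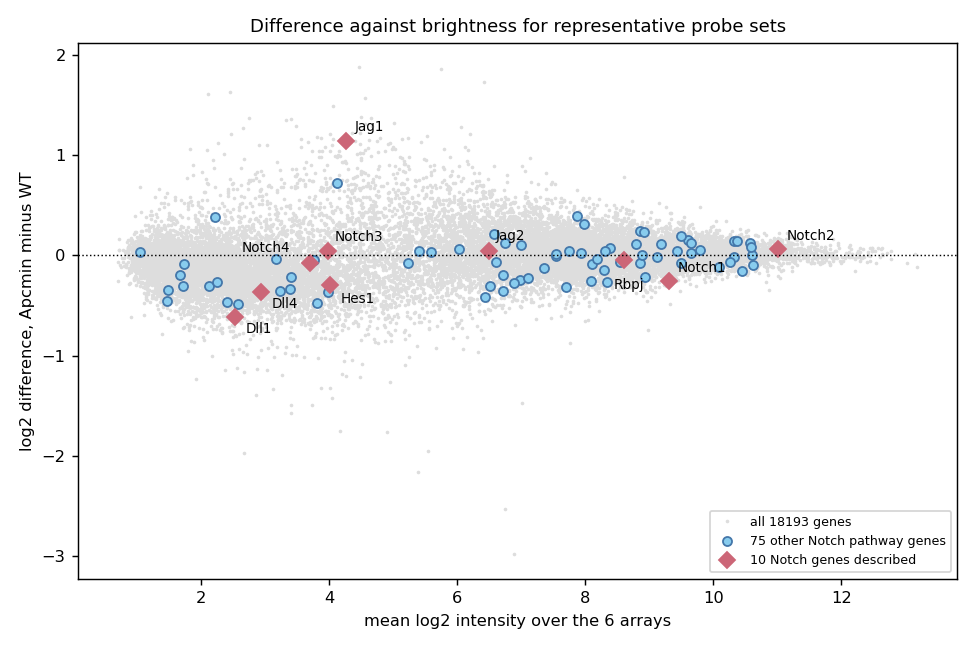
Log2 difference (Apcmin minus WT) against the mean log2 intensity over the 6 arrays for the representative probe sets of all 18193 genes (grey), the 75 other pathway genes (blue) and the 10 genes described (red). Jag1 stands at 1.15 in the dim range where the grey cloud is widest. In the bright range Notch2, Jag2 and Rbpj lie near 0 and Notch1 at -0.25.

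Since Jag1, Dll4 and Notch4 are known from endothelial and stromal cells, markers of those cells were read beside them. Among 14 endothelial markers the Apcmin mean was higher in 4 and lower in 10, and their summed linear intensity ran from 803 to 910 in WT and from 781 to 835 in Apcmin. Cdh5 and Kdr, which define endothelium, were dim at 2.25 and 3.17 in WT and 2.16 and 3.01 in Apcmin. Pecam1 and Tek, which stem cells carry too, were bright at 7.01 and 7.32 in WT and 6.71 and 6.94 in Apcmin. The largest differences on this list went the other way. Plvap read 3.36 in WT and 3.86 in Apcmin, and Esam 6.50 and 6.98. Of 13 stromal markers 4 were higher and 9 lower, their sum running from 280 to 373 in WT and from 294 to 331 in Apcmin, and Cxcl12 (3.47 and 3.55) and Col1a1 (3.02 and 2.62) were dim. Of 17 markers of mature blood cells 3 were higher and 14 lower, with sums of 7035 to 10274 in WT and 7816 to 8358 in Apcmin. The WT and Apcmin ranges overlapped in each of these sums. Beside these counts, 57.0% of all genes and 62.0% of dim probe sets had a lower mean. A linear sum is set mostly by its brightest members, so its overlap does not compare cell content. Only 1 of the 13 stromal markers was bright, Pdgfrb, at 7.72 in WT and 7.59 in Apcmin. Of the endothelial markers 5 were bright and of the mature blood markers 6, S100a9 and S100a8 foremost.

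The genes whose profile over the 6 arrays was most like that of 1434070_at, each centred on its own mean, were Ddit4l, an inhibitor of mTOR signalling, Ramp2, a coreceptor for adrenomedullin, and Cnmd, a cartilage glycoprotein. Their root mean square differences from Jag1 were 0.14, 0.24 and 0.26 on the log2 scale. Ddit4l read 1.56 ± 0.06 (SD, n = 3) on the WT and 2.61 ± 0.30 on the Apcmin arrays, Ramp2 at 4.20 ± 0.25 and 5.37 ± 0.13, and Cnmd at 2.37 ± 0.08 and 3.13 ± 0.07. All 3 were dim, and a profile picked from so many genes over 6 arrays carries no test. Ddit4l had 3 probe sets, of which only the brightest was compared.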

How the data were processed

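Expression was measured in 6 samples, 3 WT and 3 Apcmin, grouped by their titles. The values deposited by the authors are normalized intensities, linear, from 1.315 to 11375.3. Per the submitters' processing notes they come from RMA, whose version and background method the sources used here do not give. There is no detection call, so dim probe sets can carry background. Log2 was taken with no pseudocount. Of 45101 probe sets, 64 controls were left out. Symbols came from GEO's platform annotation: 34945 probe sets had 1 symbol, 932 several and 9160 none, and 0 changed when looked up in RefSeq (GRCm38.p6). The rank of a probe set among all probe sets says how bright it was on the array; probes differ in affinity, so it does not compare transcript levels between genes.

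Apcmin was compared with WT by limma 3.58.1 (R 4.3.3; lmFit, eBayes, genotype as the only term), adjusted by Benjamini-Hochberg over 45037 probe sets at 0.05, and the step was tested on simulated data. Precision is limited by the number of arrays: the median 95% half-width of a log2 difference was 0.50. The members and lists were chosen with earlier results of these data known. The text names the 10 genes, the 2 bright genes of each role group with the smallest p, and fixed markers. It also names the 3 profiles nearest to Jag1 outside the 10 genes and predicted genes. Snai1, Hes7, Dtx1, Fbxw7, Dtx3 and Hey1 were added after their values were seen. So were the markers Plvap, Esam, Pdgfrb, S100a8, S100a9, Camp, Cd3e, Cd79a and Itgam.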

Additional observations from a re-analysis of the deposited data

How the results depend on the processing

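The Jag1 difference, 1.15, was positive in all 14 alternatives that kept its probe set, and a filter at a mean log2 of 6 removed the probe set, as it did those of Dll1, Dll4, Notch3, Notch4 and Hes1, which the filter at the median removed as well. It was 0.83 with a floor at 4, 0.62 with 16 added to the intensities and 0.23 when the gene's probe sets were averaged, and leaving out each array gave 1.03 to 1.21. In the last of these 3 settings the smaller value comes from averaging with the other probe sets, which showed no rise (-0.42 and -0.05). No probe set passed the adjusted threshold under any of the 15 alternatives run, while the number at an unadjusted p under 0.05 was 5864 without WT replicate 3 against 1714. The number of other pathway genes with a higher mean, 32, lay between 26 (further quantile normalization) and 38 (without WT replicate 3). A sign turn occurred in 4 of 15 alternatives for Jag2, 2 of 15 for Notch2, 7 of 13 for Notch3, 2 of 13 for Notch4 and 2 of 15 for Rbpj, and in none for Jag1, Dll1, Dll4, Notch1 and Hes1. With values under 4 set to 4, Dll1 and Dll4 had a difference of 0, all their values lying under the floor. With the replicate number as a block, 0 of 45037 probe sets passed, 1398 had an unadjusted p under 0.05 and the Jag1 difference was 1.15. The titles give same-numbered WT and Apcmin samples only a shared replicate number. Their deviations from the group means correlated at 0.05, -0.05 and -0.25 over 15155 probe sets. By the same measure 0 of 6 samples correlated best with its own number. With 3 arrays per group this cannot exclude a pairing.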

Other observations

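Among Notch target genes, Hey1, a repressor related to Hes1, varied more between arrays of 1 genotype than between genotypes. It read 3.60, 4.79 and 2.86 on WT replicates 1, 2 and 3 and 5.51, 3.46 and 4.46 on Apcmin replicates 1, 2 and 3, with a difference of 0.73 and a standard error of 0.64. Nrarp read 6.06, 6.64 and 7.22 in WT and 6.24, 5.31 and 7.13 in Apcmin. Both genes were singled out after their values were seen.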
